A study of Mus musculus with 7 samples.

Results

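The BCL2 family was followed at the mRNA level in single cells of 7 mammary tumors, through 10 of its genes: Mcl1, Bcl2, Bcl2l1, Bcl2a1b, Bax, Bak1, Bcl2l11, Bbc3, Pmaip1 and Bid. The members were given as a list of symbols, drawn up with earlier results of these data known, and all 10 were found among the 33710 genes of the matrices. The tumors came from 7 control mice, labelled MMTV-PyMT; HK2 f/f with the genotype Wild type, and were taken 3 months after a tumor could be felt. PyMT is the polyoma middle T oncogene, which the mouse mammary tumor virus promoter switches on in mammary epithelium, and f/f marks both copies of the hexokinase 2 gene as flanked by recombination sites. The study induced the loss of HK2 with tamoxifen and ERT2Cre in other mice on the same C57BL/6 background, and by its description the control mice were exposed to tamoxifen as well. Libraries of mice that lost HK2 are not part of the values given here, and the ages of the mice are not in the labels. Titles of 4 libraries end in CB and those of 3 begin with WT, a difference whose meaning the labels do not give.

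The family decides whether a cell keeps its mitochondrial outer membrane closed. BAX and BAK, the effectors encoded by Bax and Bak1, open the membrane and let cytochrome c out, which activates the caspases. The survival proteins MCL1, BCL2, BCL-XL (Bcl2l1) and A1 (Bcl2a1b) hold the effectors in check, and the BH3-only proteins BIM (Bcl2l11), PUMA (Bbc3), NOXA (Pmaip1) and BID counter the survival proteins or activate the effectors. MCL1 is a protein of short life, so its mRNA level and its protein level can part, and the protein was not measured here.

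Drop-seq counts unique molecular identifiers (UMIs), each standing for 1 captured mRNA molecule read near its 3′ end. Of 37000 barcodes, 15047 held 200 to 6000 genes and were taken as cells, 1133 to 4780 per mouse, with medians of 527 to 694 UMIs per cell. The same barcode was found as a cell in more than 1 library 5 times. Marker genes placed 13416 cells (89.2%) in 7 classes: 6166 tumor, 1702 hormone-sensing luminal, 269 myoepithelial, 1027 fibroblast, 142 endothelial, 1900 macrophage and 2210 T/NK cells. The median summed level of each of the 7 marker lists was highest in the class of its name, which is no independent check, since the clusters were named by these same lists. In the tumor class PYMT stood at 2066 ± 1130 CPM (SD, n = 7) against 415 ± 344 CPM in hormone-sensing cells. The myoepithelial list summed to 1401 to 12005 CPM in its class and 162 to 518 CPM in the tumor class, although its keratin Krt14 was 163 ± 103 CPM (n = 5) there and 200.2 ± 120 CPM (n = 7) in tumor cells. The myoepithelial class also carried much of the tumor signature. Its summed tumor markers ranged from 11599.5 to 47791 CPM over 5 mice, against 41288 to 85697 CPM in the tumor class, and its PYMT level was 1087 ± 1257 CPM. UMIs were summed per mouse and class and given as CPM, the UMIs of a gene per 1000000 UMIs of the sum, and sums of fewer than 10 cells were left out, which left 5 mice for the myoepithelial and 3 for the endothelial class. A CPM is a share of the mRNA of a class, so fewer molecules of a gene and more of all others cannot be told apart. Barcodes under 200 genes gave each gene a reference level for free RNA, and whether small cells were among them was not tested.

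Mcl1 had the largest mean share of the members' UMIs in the tumor, hormone-sensing, myoepithelial, fibroblast and endothelial classes. A UMI counts a molecule whatever the length of its transcript, although transcripts can differ in how well they are captured. In the tumor class Mcl1 made up 53.8% ± 7.0 of the members' UMIs (SD, n = 7), Bax 12.5% ± 2.7, Bcl2l11 8.60% ± 2.25, Bcl2l1 7.36% ± 2.99 and Bcl2 5.88% ± 1.51. In fibroblasts Mcl1 made up 61.5% ± 13.5, Bax 17.2% ± 8.7 and Bcl2l1 3.30% ± 3.24. In macrophages Bcl2a1b held 38.0% ± 8.8 and Mcl1 32.3% ± 6.2, and these ranges overlapped. In T/NK cells Mcl1 (24.6% ± 8.0) and Bcl2 (24.6% ± 9.5) held equal mean shares, followed by Bcl2a1b (16.7% ± 9.6) and Bcl2l11 (13.3% ± 4.7). These means give replicate 8, with 19 member UMIs in T/NK cells, the weight of any other mouse. Pooled over mice, Bcl2 took 28.4% and Mcl1 21.0% of 1088 UMIs. In hormone-sensing cells Mcl1 made up 39.5% ± 12.7 and Bax 26.8% ± 9.0, above its range in the tumor class (9.57 to 17.7%). Such shares are tied to one another, and a lower level of Mcl1 raises that of each other member.

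**Figure D1:**
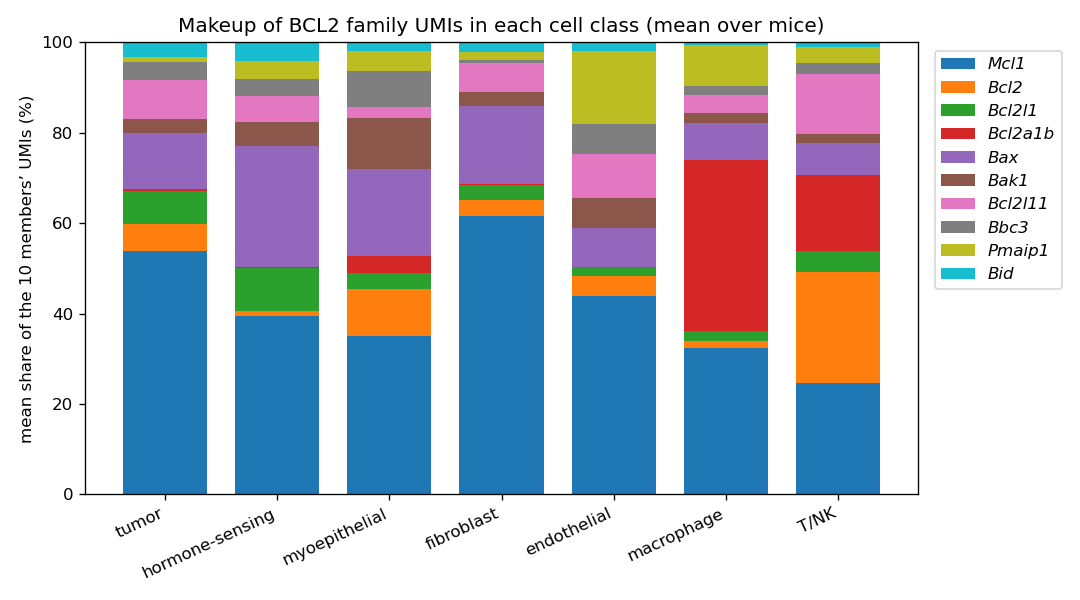
Stacked bars of the mean share (%) that each of the 10 members took of the members' UMIs in each cell class, averaged over 7 mice (5 for myoepithelial, 3 for endothelial). Mcl1 fills 53.8% of the tumor bar, Bcl2a1b 38.0% of the macrophage bar and Bcl2 24.6% of the T/NK bar.

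Among the 7 classes, the mean of Mcl1 mRNA was highest in macrophages, next in tumor cells, and lowest in the other epithelial classes. The lowest places depended on the setting. With at least 500 genes per cell T/NK cells were lowest, at 134 CPM (n = 5), against 151 in myoepithelial and 195 in hormone-sensing cells. With classes set cell by cell instead of by cluster, myoepithelial cells held 306 CPM, above fibroblasts at 271.5 CPM, and hormone-sensing cells were lowest at 184 CPM. By cluster, myoepithelial cells were lowest, at 147 CPM, with hormone-sensing cells next at 183 CPM. The gene lies at chr3:95658788-95663176 on the plus strand of GRCm38, with no annotated gene over it. Its level in the tumor class had a lowest, median and highest value of 198, 334 and 511 CPM over 7 mice. In macrophages these were 309, 511 and 755 CPM, and each of the 7 mice had more Mcl1 in its macrophages than in its tumor cells. In hormone-sensing cells they were 83.4, 159 and 351 CPM, below the tumor cells of the same mouse in 7 of 7 mice. A quasi-likelihood fit in edgeR that blocked on mouse, with p-values adjusted by Benjamini-Hochberg across 6197 genes, gave a log2 fold change from the tumor class of 0.78 ± 0.17 (SE) for macrophages (adjusted p = 8.6e-05) and -1.10 ± 0.18 for hormone-sensing cells (adjusted p = 2.0e-06). The same edgeR test put T/NK cells at -0.72 ± 0.19 (adjusted p = 0.0014), with 99.4, 218 and 606.5 CPM, and the myoepithelial class at -1.18 ± 0.27 (adjusted p = 4.4e-04), with 0, 144 and 272 CPM. With no filter on low counts, the macrophage difference was smaller and nearer the threshold, at 0.57 ± 0.21 (edgeR adjusted p = 0.039). Library sizes in place of TMM factors put it at 0.54.

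The highest T/NK value, from replicate 8, rested on 7 UMIs in 27 cells. In the other mice, 6 of 7, T/NK cells had less Mcl1 than tumor cells, and without replicate 8 the difference stayed within -0.84 to -0.71, the range over single mice left out. The T/NK difference kept its size but did not pass without the mouse as a block (log2 fold change -0.69, adjusted p = 0.055) or in the 3 WT mice alone (-0.79, adjusted p = 0.069). The myoepithelial difference did not pass in the 2 CB mice that had at least 10 such cells (log2 fold change -0.77, adjusted p = 0.12), nor when classes were set cell by cell instead of by cluster (-0.25, adjusted p = 0.52). Of the 401 cells set as myoepithelial cell by cell, 141 (35.2%) were myoepithelial by cluster, so that value describes mostly other cells. Fibroblasts, at 173, 237 and 572 CPM, differed from the tumor class by -0.19 ± 0.19 (edgeR adjusted p = 0.42), with less Mcl1 than tumor cells in 6 of 7 mice. With no filter on low counts the difference was -0.55 ± 0.23 (adjusted p = 0.082), and with library sizes in place of TMM factors -0.41 (adjusted p = 0.052). Endothelial cells held 387 CPM in replicate 4, 197 in replicate 5 and 157 in replicate 8, on 13, 6 and 5 UMIs, and the edgeR difference of -0.74 ± 0.34 did not pass (adjusted p = 0.13), but with no filter it was -1.25 ± 0.41 and passed (adjusted p = 0.046). In the order of the 7 classes, neighbours from fibroblast through T/NK and endothelial to hormone-sensing kept their order in at most 4 of 7 or 2 of 3 mice.

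Against the free RNA of the same mouse, which held 280 ± 73.9 CPM of Mcl1 (n = 7), macrophages were higher in 7 of 7 mice and tumor cells in 6 of 7, whereas hormone-sensing and T/NK cells were each higher in 1 of 7 and myoepithelial cells in 0 of 5. In most mice the last 3 classes thus held no more Mcl1 than barcodes under 200 genes. The same was true of fibroblasts, higher in 3 of 7 mice, and of endothelial cells, higher in 1 of 3. The share of cells with a Mcl1 UMI, with each cell thinned to 300 UMIs, was 13.01% in macrophages, 9.15% in tumor cells and 5.34% in hormone-sensing cells. Before thinning it was 27.0%, 25.4% and 18.2%, at median depths of 549, 684 and 873.5 UMIs. Immediate early and heat shock genes, which tissue dissociation raises, also differed between the classes. The sum of 14 such genes ranged from 6761 to 20779.8 CPM in macrophages, from 11018 to 45310.4 in tumor cells and from 13867 to 39479.8 in hormone-sensing cells. It was lower than in tumor cells in 7 of 7 mice in macrophages, where Mcl1 was higher, but also in 7 of 7 in T/NK and 5 of 5 in myoepithelial cells, where Mcl1 was lower. In hormone-sensing cells it was lower in 3 of 7. The 14 genes did not all go with their sum. Against tumor cells, edgeR called 8 lower and 2 higher in macrophages, and 10 lower and 2 higher in T/NK cells. Those higher in macrophages were the heat shock gene Hspa1a (1.61 ± 0.29) and Dusp1 (0.95 ± 0.19). In T/NK cells they were Hspa1a (0.99 ± 0.30) and Junb (0.85 ± 0.20). The part of these genes in the differences of Mcl1 was not tested.

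**Figure D2:**
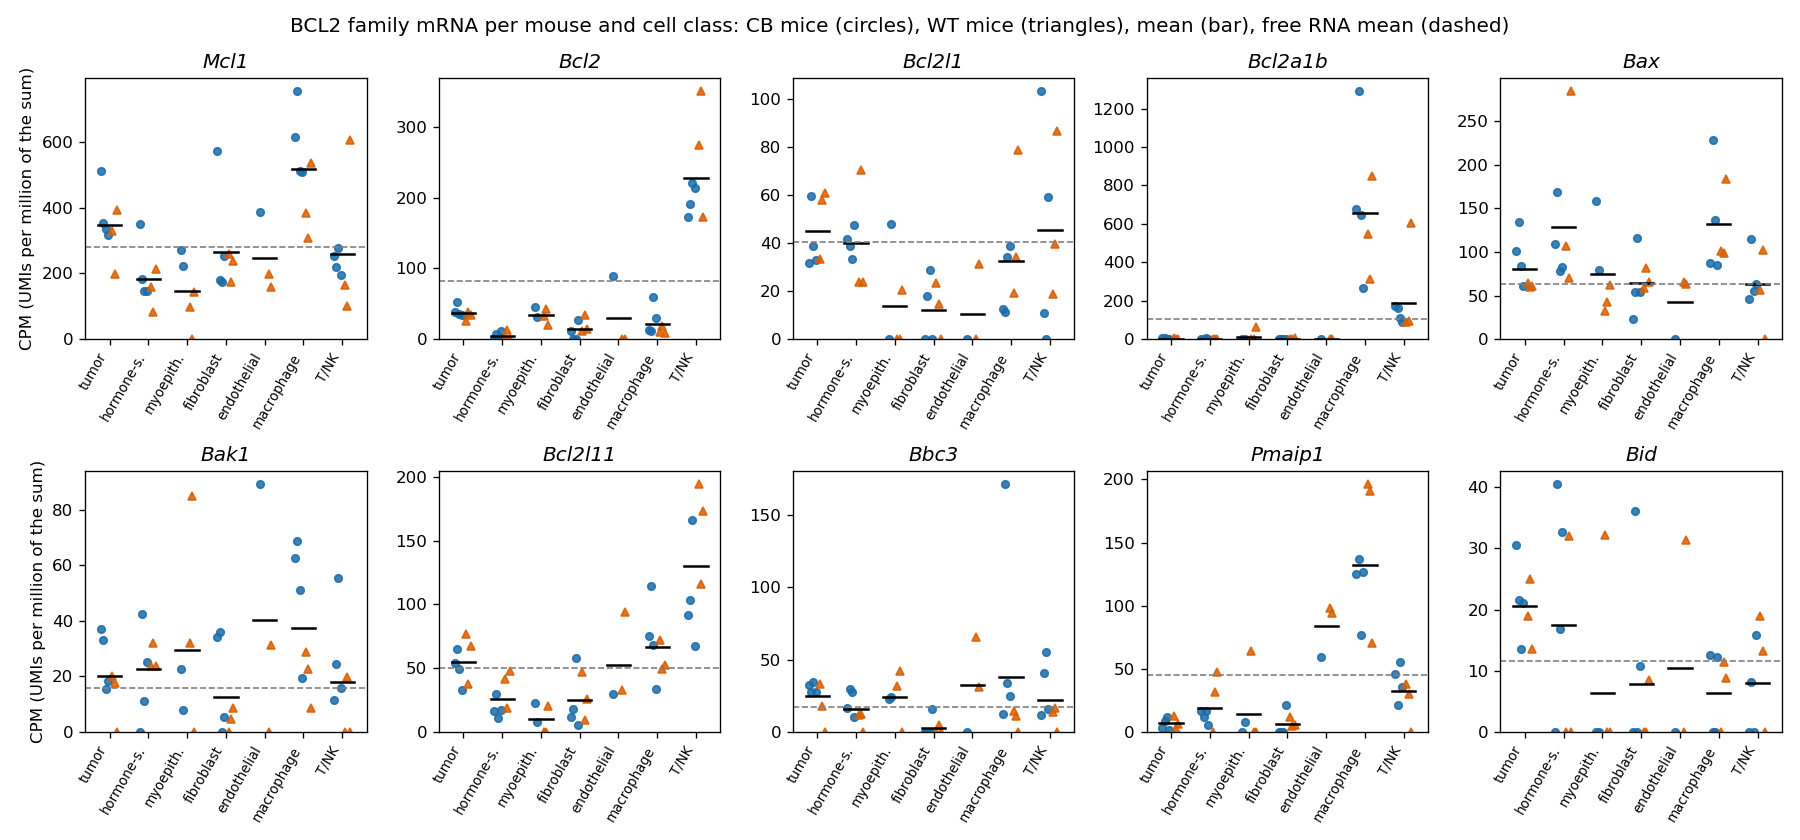
Level (CPM) of each member in each class, 1 point per mouse, with circles for the 4 CB mice, triangles for the 3 WT mice, a bar for the mean and a dashed line for the mean free RNA level; each panel has its own linear axis from 0. Mcl1 is seen in every class, whereas Bcl2 stands high in T/NK cells (228 CPM) and Bcl2a1b in macrophages (656 CPM) and T/NK cells (189 CPM).

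Among the 8 members that passed the filter on low counts, 5 were higher in macrophages than in the tumor class (Mcl1, Bcl2a1b, Bax, Bak1 and Pmaip1) and 0 lower, while 22.7% of all tested genes were higher there and 29.1% lower. In T/NK cells 4 were higher (Bcl2, Bcl2a1b, Bcl2l11 and Pmaip1; background 24.7%) and Mcl1 was lower (background 27.9%). In hormone-sensing cells 3 were lower (Mcl1, Bcl2 and Bcl2l11; background 16.4%) and 0 higher (background 14.0%). Mcl1 and Bcl2l11 were lower in myoepithelial cells (background 12.8% lower and 13.2% higher), and Bcl2l1 and Bcl2l11 in fibroblasts (background 21.9% lower and 25.5% higher). In endothelial cells Pmaip1 was higher (background 8.84%) and 0 were lower (background 10.4%). The edgeR F test across the 7 classes called 7 of the 8, with Bak1 the exception (adjusted p = 0.11), but it called 84.9% of all genes. These counts depend on the filter. Bcl2a1b and Pmaip1, with 24 and 44 UMIs in tumor cells, passed it by their counts in classes where they stand high. Bid and Bbc3, with 183 and 220, did not pass it. The counts of higher members are thus tied in part to the filter. With no filter, and 31354 genes tested, macrophages had 3 members higher (Mcl1, Bcl2a1b and Pmaip1; background 6.26%) and Bid lower (background 11.9%), and Bax and Bak1 did not pass. In T/NK cells the same 4 as with the filter were higher (background 1782 of 31354 genes), and Mcl1 and Bid were lower (background 12.8%). The median log2 difference of all genes from the tumor class was -0.19 in macrophages, -0.42 in endothelial cells and between -0.15 and -0.04 in the other classes. Set against that median, Mcl1 was 0.97 higher in macrophages. With library sizes in place of TMM factors, Mcl1 stood at 0.54 and the median at -0.43. A change of scaling moves all genes of a class nearly alike, so the distance of 0.97 could hardly change and is no second check.

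**Figure D3:**
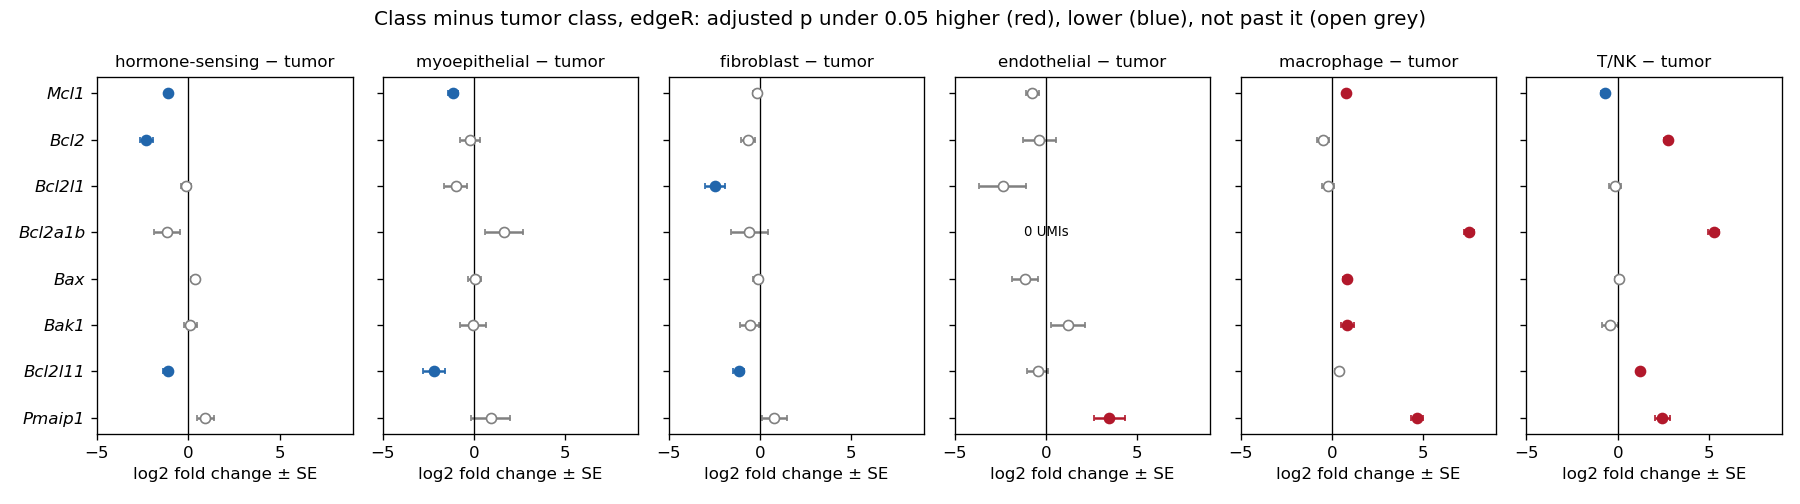
Log2 fold change ± SE of the 8 tested members in each class against the tumor class (edgeR, mouse as block), in red where higher and in blue where lower at an adjusted p under 0.05, and open grey otherwise; Bcl2a1b had 0 UMIs in endothelial cells. Red points stand in macrophages, up to 7.52 for Bcl2a1b, in T/NK cells and, for Pmaip1, in endothelial cells, and blue ones in the hormone-sensing, myoepithelial and fibroblast classes and, for Mcl1, in T/NK cells.

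Bcl2, the founding survival gene of the family, was a T/NK gene in these tumors. Its lowest, median and highest levels were 172, 214 and 351 CPM in T/NK cells and 24.9, 35.8 and 52.1 CPM in tumor cells, and the 2 groups did not overlap. The difference was 2.74 ± 0.22 on the log2 scale (edgeR adjusted p = 4.4e-16), higher in 7 of 7 mice, and T/NK cells were also above free RNA in 7 of 7 mice. Tumor cells were above it in 1 of 7, since free RNA held 81.9 ± 41.3 CPM. Hormone-sensing cells had almost no Bcl2, with 23 UMIs in 2730663, 4 of 7 mice at 0 and a log2 difference from tumor cells of -2.31 ± 0.35 (edgeR adjusted p = 2.6e-07). A long noncoding gene on the other strand, D630008O14Rik, shares exon sequence with Bcl2, and whether the counting used strand is not given in the sources used here. Bcl2 lies at chr1:106538178-106714274 in GRCm38, on the minus strand.

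Bcl2l1, which encodes BCL-XL, had a flatter profile. Its levels in the tumor class were 31.8, 38.7 and 60.8 CPM (lowest, median and highest), and hormone-sensing cells (23.6, 38.8 and 70.6), macrophages (11.4, 34.1 and 78.9) and T/NK cells (0, 39.8 and 104) overlapped them. None of these 3 classes differed from the tumor class by more than 0.21 on the log2 scale, with standard errors of 0.29 to 0.34. Fibroblasts were lower, at 0, 14.4 and 29.0 CPM on 7 UMIs, by 2.49 ± 0.55 (edgeR adjusted p = 1.4e-04), with 7 of 7 mice in that direction. Tumor cells exceeded the free RNA level of Bcl2l1 (40.7 ± 12.5 CPM) in 5 of 7 mice.

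Bcl2a1b, a member of the A1 group that is known from blood cells, was found in leukocytes and hardly anywhere else. Macrophages held 264, 648 and 1292 CPM and T/NK cells 87.2, 111 and 606.5 CPM (lowest, median and highest of 7 mice). The tumor class held 24 UMIs in 8038342, or 2.99 ± 3.11 CPM, and the endothelial class 0 UMIs, which allows a level of up to 31.3 CPM. Against the tumor class the log2 differences were 7.52 ± 0.27 for macrophages (edgeR adjusted p = 1.6e-31) and 5.25 ± 0.32 for T/NK cells (edgeR adjusted p = 4.8e-21), higher in 7 of 7 mice each. Free RNA held 103 ± 52.3 CPM, far above the tumor cells. Macrophages were above the free RNA of the same mouse in 7 of 7 mice and T/NK cells in 5 of 7. The highest T/NK value again came from replicate 8, on 7 UMIs. With each cell thinned to 300 UMIs, 11.9% of macrophages and 3.31% of T/NK cells had a UMI of Bcl2a1b, against 0.145% of tumor cells. Before thinning the shares were 23.7%, 5.48% and 0.357%, at median depths of 549, 419 and 684 UMIs.

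The mouse carries A1 in several near-identical copies on chromosome 9, and the counts of single copies are uncertain for that reason. Bcl2a1b lies at chr9:89199209-89207827 and Bcl2a1a at chr9:88956900-88962419 on the plus strand, and Bcl2a1d at chr9:88723285-88731914 on the minus strand (GRCm38). Another annotated gene on the same strand, Gm29094, shares exon sequence with Bcl2a1b. Of the 50-base stretches in the last 300 bases of the transcript, 74.1% of those of Bcl2a1b, 64.5% of those of Bcl2a1a and 94.8% of those of Bcl2a1d occur in another copy. The stretches upstream of the annotated starts are shown because they make the closeness of the copies visible. They are from RefSeq (GRCm38.p6), printed 5′ to 3′ on the strand of the gene for chr9:88956714-88956855, chr9:89199023-89199164 and chr9:88731915-88732050, with capitals where the 3 copies are not the same.
Bcl2a1a: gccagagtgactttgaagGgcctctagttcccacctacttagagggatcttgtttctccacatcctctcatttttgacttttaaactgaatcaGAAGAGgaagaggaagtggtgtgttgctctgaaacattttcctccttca
Bcl2a1b: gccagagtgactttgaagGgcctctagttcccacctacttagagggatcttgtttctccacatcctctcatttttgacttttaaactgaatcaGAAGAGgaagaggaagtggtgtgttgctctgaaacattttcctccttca
Bcl2a1d: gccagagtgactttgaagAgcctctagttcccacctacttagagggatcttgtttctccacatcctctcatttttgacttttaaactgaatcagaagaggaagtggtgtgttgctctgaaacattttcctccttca

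The upstream stretches of Bcl2a1a and Bcl2a1b are the same letter for letter, and that of Bcl2a1d differs by 1 base and lacks 6. Over the longer windows from before to after the RefSeq start, Bcl2a1a and Bcl2a1b were identical at 254 of 256 aligned positions and Bcl2a1b and Bcl2a1d at 247 of 256. The run GAGGAAGT, a form of the site known for the myeloid and lymphoid factor PU.1, is present in the 3 stretches printed. Searched on both strands it is in 3.28% of the 27025 promoter windows of the table, and among the 9 members with a window it is in Bcl2a1b and Bak1. A match of letters is no evidence of binding.

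The copies were not counted in a fixed ratio. Of the UMIs of Bcl2a1a, Bcl2a1b and Bcl2a1d together, Bcl2a1a held 22.8% ± 7.0 in macrophages (SD, n = 7) and 4.99% ± 4.49 in T/NK cells, and its share was larger in macrophages in 7 of 7 mice. Pooled over mice these were 333 of 1339 UMIs (24.9%, 95% Wilson interval 22.6 to 27.3%) and 21 of 289 UMIs (7.27%, 4.80 to 10.9%), intervals that cover counting error only. Bcl2a1b took 56.2% ± 14.1 in macrophages and 55.2% ± 14.7 in T/NK cells, and Bcl2a1d 21.1% ± 8.3 and 39.9% ± 14.8. The comparison of copies was chosen after its values were seen, and no test was made.

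**Figure D4:**
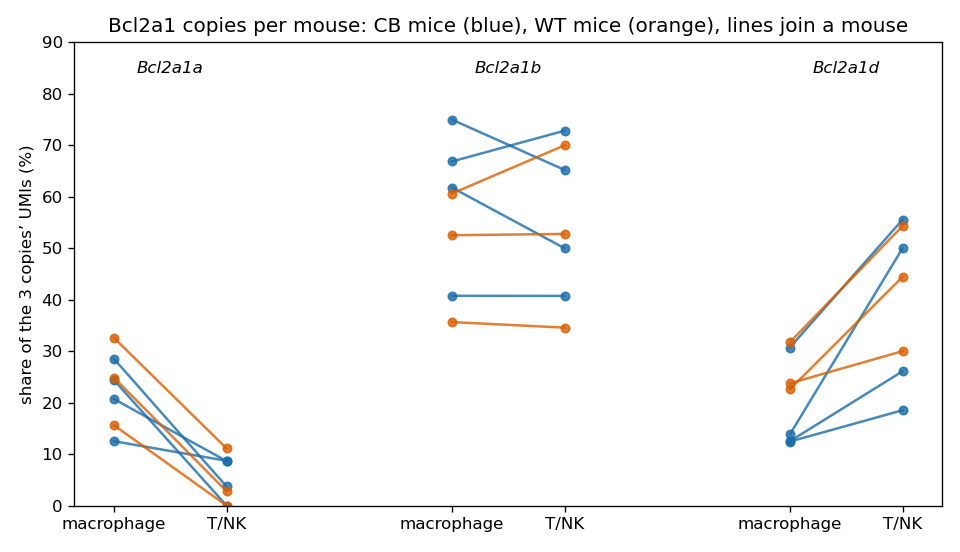
Share (%) of the UMIs of 3 A1 copies taken by each copy in macrophages and T/NK cells, with 1 line per mouse, blue for CB and orange for WT mice. The Bcl2a1a lines fall in every mouse, from 12.5 to 32.6% in macrophages to 0 to 11.1% in T/NK cells, and the Bcl2a1d lines rise.

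Of the effector genes, Bax was highest in macrophages (84.6, 101 and 229 CPM, lowest, median and highest) and hormone-sensing cells (70.6, 106 and 285 CPM), and tumor cells held 60.2, 64.1 and 135 CPM. These ranges overlapped, but within a mouse Bax was above the tumor cells in 6 of 7 mice for both classes. The macrophage difference was 0.81 ± 0.21 (edgeR adjusted p = 8.3e-04) and that of hormone-sensing cells 0.37 ± 0.20 (edgeR adjusted p = 0.17). The macrophage difference was lost in the 4 CB mice alone (log2 fold change 0.56, adjusted p = 0.063) and with no filter on low counts (0.61, adjusted p = 0.068). Bak1 was low throughout, with 186 UMIs in tumor cells (20.3 ± 12.2 CPM) and 41 in macrophages (37.5 ± 23.2 CPM). Its difference of 0.84 ± 0.36 passed narrowly (edgeR adjusted p = 0.049), in 7 of 7 mice, and did not pass with library sizes in place of TMM factors (0.61, adjusted p = 0.14), without the block (0.79, adjusted p = 0.17) or with no filter (0.60, adjusted p = 0.24). It was also lost without replicate 3, 5 or 8, at 0.68, 0.83 and 0.79. Exons of Ggnbp1 on the other strand overlap those of Bak1, and exons of Gm45808 on the same strand overlap those of Bax.

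The BH3-only genes separated the classes in different ways. Pmaip1, which encodes NOXA, an inhibitor of MCL1, was high where Mcl1 was highest. Macrophages held 70.2, 127 and 197 CPM and tumor cells 1.91, 6.76 and 13.1 CPM, with no overlap, a log2 difference of 4.69 ± 0.33 (edgeR adjusted p = 3.5e-19). Endothelial cells, few as they were, held 59.5, 98.3 and 94.2 CPM in replicates 4, 5 and 8 on 2, 3 and 3 UMIs, 3.48 ± 0.86 above tumor cells (edgeR adjusted p = 0.0019). That call was lost when only cells with 500 genes or more were used (2.57, adjusted p = 0.11). T/NK cells, at 0, 35.7 and 55.3 CPM, were higher by 2.45 ± 0.43 (edgeR adjusted p = 2.9e-06) but above the free RNA level (45.4 ± 18.2 CPM) in 2 of 7 mice, and their call was lost in the cells with 500 genes or more too (1.56, adjusted p = 0.05, just over the threshold). In tumor cells Pmaip1 was below free RNA in 7 of 7 mice.

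Bcl2l11, which encodes BIM, was highest in T/NK cells. It held 67.3, 116 and 194 CPM there, 33.1, 53.7 and 77.1 CPM in tumor cells and 11.2, 19.2 and 47.5 CPM in hormone-sensing cells. T/NK cells were 1.23 ± 0.19 above the tumor class (edgeR adjusted p = 2.4e-07), in 7 of 7 mice. Hormone-sensing cells were below it by -1.13 ± 0.23 (edgeR adjusted p = 4.9e-05), also in 7 of 7 mice. Fibroblasts (-1.17 ± 0.31, edgeR adjusted p = 0.0012) and myoepithelial cells (-2.20 ± 0.58, edgeR adjusted p = 0.0031, on 3 UMIs) were lower as well. These 3 differences did not pass in the 3 WT mice alone (-0.95, -1.04 and -2.82), and the myoepithelial one was also lost in the CB mice (-1.73) and with classes set cell by cell (-0.32, on mostly other cells). In macrophages, at 33.5, 68.2 and 114 CPM, the difference of 0.40 ± 0.21 did not pass (edgeR adjusted p = 0.11), but it did at a clustering resolution of 1.0 (0.54, adjusted p = 0.027) and with 9 principal components (0.90, adjusted p = 0.0013), where the macrophage class held 998 instead of 1900 cells. Hormone-sensing cells thus had less mRNA than tumor cells of the survival genes Mcl1 and Bcl2 and of the BH3-only Bcl2l11.

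Bid and Bbc3 stayed low, and were tested with no filter on low counts but not with it. Bid, which is cut by caspase-8 to reach the mitochondria, held 20.6 ± 6.1 CPM in tumor cells on 183 UMIs and was above free RNA there in 7 of 7 mice, against 6.44 ± 6.15 CPM in macrophages on 12 UMIs and 8.03 ± 8.18 CPM in T/NK cells on 15 UMIs. Macrophages and T/NK cells each had less Bid than the tumor cells of the same mouse in 7 of 7 mice. With no filter, edgeR called Bid lower in macrophages (-1.46 ± 0.43, adjusted p = 0.0049), in T/NK cells (-1.19 ± 0.40, adjusted p = 0.019; background 12.8%), in fibroblasts (-1.70 ± 0.50, adjusted p = 0.006; background 9.85%) and, on 1 UMI, in myoepithelial cells (-3.02 ± 0.94, adjusted p = 0.022; background 4.92%). With classes set cell by cell, the myoepithelial mean, on mostly other cells, was instead above that of tumor cells (33.4 ± 25.6 against 16.2 ± 9.65 CPM, n = 7 each). Exons of Bcl2l13 on the other strand overlap those of Bid. Bbc3, the p53 target that encodes PUMA, held 24.9 ± 12.3 CPM in tumor cells and 2.98 ± 6.05 CPM in fibroblasts, where 5 of 7 mice were at 0. With no filter, edgeR called it lower in fibroblasts (-2.37 ± 0.57, adjusted p = 4.4e-04) and hormone-sensing cells (-1.12 ± 0.32, adjusted p = 0.0069; background 6.66%). Its macrophage level of 38.4 ± 59.7 CPM came mostly from replicate 2, at 172 CPM, while the median was 14.4 CPM.

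Within the classes, some members differed between the clusters that made them up, and other pairs of clusters had no clear order, such as the Ltf and interferon clusters of tumor cells for Mcl1 (3 of 6 mice each way). Pairs chosen after their values were seen are given here as a description. The tumor class held 4 clusters, led by Scgb2b27, by Ltf, by the acute phase genes Saa1 and Saa2, and by the interferon-induced Ifit3 and Rsad2. Mcl1 was 468 ± 180 CPM in the Saa1 cluster and 299 ± 103 CPM in the Scgb2b27 cluster (n = 7 each), higher in the former in 7 of 7 mice. Bax went the other way, 48.0 ± 18.5 against 101 ± 36.5 CPM, lower in the Saa1 cluster in 7 of 7 mice. The Ltf cluster held 372 ± 115 CPM of Mcl1 and the interferon cluster 381 ± 139 CPM (n = 6).

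The T/NK class joined a cytotoxic cluster led by Gzmb, a cluster led by Lef1 and Ccr7, and one led by Il17a and Cd163l1. Bcl2a1b stood at 476 ± 239 CPM in the Il17a cluster (n = 6), 106.5 ± 63.6 CPM in the Gzmb cluster (n = 7) and 57.5 ± 35.8 CPM in the Lef1 cluster (n = 5), and the Il17a cluster was higher than the Gzmb cluster in 6 of 6 mice. For Bcl2l11 the Il17a cluster was instead the lowest. The gene held 191.5 ± 107 CPM in the Gzmb cluster, 77.5 ± 36.6 CPM in the Lef1 cluster and 23.0 ± 43.2 CPM, on 5 UMIs, in the Il17a cluster. Bcl2 was 266 ± 137 CPM in the Gzmb and 143 ± 38.7 CPM in the Lef1 cluster, higher in the former in 5 of 5 mice. In macrophages, the cluster led by Ms4a7 and C1qc held 706 ± 361 CPM of Bcl2a1b (n = 7) and that led by Ccl8, Pf4 and Mrc1 296 ± 237 CPM (n = 6), lower in 6 of 6 mice. Mcl1 was 475 ± 145 and 673 ± 311 CPM in these clusters, higher in the second in 5 of 6 mice.

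**Figure D5:**
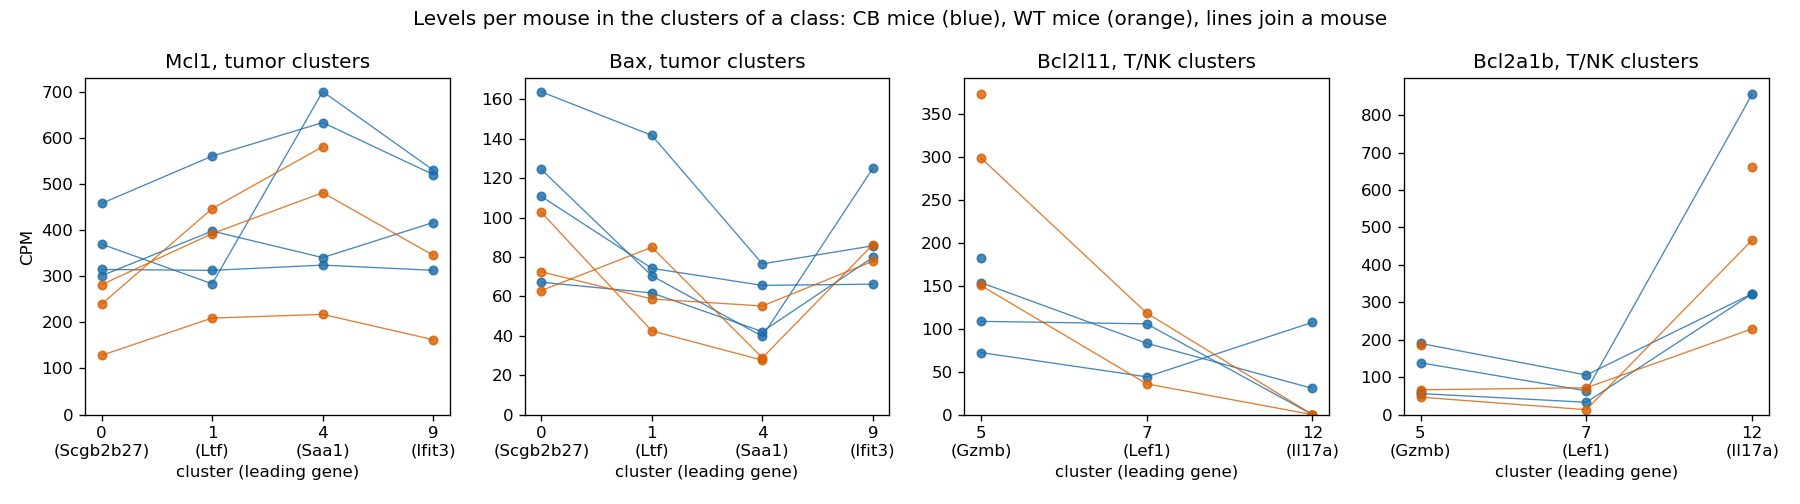
Level (CPM) of Mcl1 and Bax in the 4 tumor clusters and of Bcl2l11 and Bcl2a1b in the 3 T/NK clusters, with 1 line per mouse, blue for CB and orange for WT mice, and clusters named by number and a leading gene; clusters with fewer than 10 cells in a mouse have no point. Mcl1 is higher and Bax lower in the Saa1 cluster than in the Scgb2b27 cluster in each of 7 mice.

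The rest of the family and the steps around it were taken from lists of genes. Of 16 further family genes 5 were abundant enough to be tested. Bik, a BH3-only gene, was 1.15 ± 0.24 above the tumor class in hormone-sensing cells (edgeR adjusted p = 1.2e-04; 78.4 ± 26.6 against 31.9 ± 10.8 CPM) and 3.33 ± 0.52 below it in macrophages (edgeR adjusted p = 1.8e-07), with fibroblasts and T/NK cells lower too. Bcl2a1a and Bcl2a1d were higher in macrophages (6.45 ± 0.26 and 5.12 ± 0.23) and T/NK cells (2.38 ± 0.44 and 3.81 ± 0.26), Bcl2a1d was lower in hormone-sensing cells and Bad was lower in T/NK cells. In myoepithelial and endothelial cells 0 of the 5 were called. With 5 genes, and with 8.84 to 13.2% of all genes called in each direction in those 2 classes, 0 calls is near the background.

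Of 19 genes for the apoptosome, the caspases and the inhibitor of apoptosis proteins, 12 were tested. In T/NK cells 7 were higher and 1 lower, in fibroblasts 5 higher and 3 lower, in macrophages 4 higher and 4 lower, in endothelial cells 1 each way, and in hormone-sensing and myoepithelial cells 0 higher and 1 lower. Over all genes the shares higher and lower were 24.7% and 27.9% in T/NK cells, 25.5% and 21.9% in fibroblasts 22.7% and 29.1% in macrophages, 8.84% and 10.4% in endothelial, 14.0% and 16.4% in hormone-sensing and 13.2% and 12.8% in myoepithelial cells. The list's median log2 difference was 0.73 in T/NK cells, against -0.07 for all genes, 0.39 in macrophages against -0.19, and 0.35 in fibroblasts against -0.04. Apaf1, the scaffold of the apoptosome, was higher in T/NK cells (1.95 ± 0.42), macrophages (1.93 ± 0.41), fibroblasts (2.11 ± 0.45) and endothelial cells (2.80 ± 0.81). Casp8, the initiator caspase of death receptors, was higher in macrophages by 1.97 ± 0.32 and in T/NK cells by 1.47 ± 0.35. Birc3, an inhibitor of apoptosis gene, was higher in fibroblasts by 2.22 ± 0.28.

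Of 10 genes listed for the turnover of MCL1, 7 were tested, with 0 higher and 3 lower in macrophages and in T/NK cells, 0 higher and 2 lower in hormone-sensing cells, 1 higher and 2 lower in fibroblasts, and 0 higher and 1 lower in myoepithelial and in endothelial cells. Of all genes, 29.1% were lower in macrophages, 27.9% in T/NK, 16.4% in hormone-sensing, 12.8% in myoepithelial and 10.4% in endothelial cells and 21.9% in fibroblasts, so that none of these counts lay far from the background. Fbxw7, the substrate receptor of a ubiquitin ligase that takes MCL1 to the proteasome, was lower than in tumor cells in hormone-sensing cells (-1.77 ± 0.26), macrophages (-1.40 ± 0.29), fibroblasts (-1.34 ± 0.32) and T/NK cells (-1.20 ± 0.29). Trib1 encodes a pseudokinase scaffold for a different ubiquitin ligase, and its place in the list does not show that it acts on MCL1. It was lower in each of the 6 classes, by -0.84 ± 0.24 in myoepithelial to -3.18 ± 0.24 in T/NK cells, from 693 ± 115 CPM in the tumor class. The 1 lower call in myoepithelial and in endothelial cells was Trib1. Of the 3 genes of the outer membrane channel, Vdac1 was higher in hormone-sensing cells (0.77 ± 0.15) and lower in fibroblasts, macrophages and T/NK cells, Vdac2 was higher in macrophages (0.59 ± 0.17) and Vdac3 lower in T/NK cells (-0.86 ± 0.27), with 0 calls in the other classes. With 3 genes these counts cannot be told from the shares over all genes. Of the 14 dissociation genes, 2 were higher and 10 lower in T/NK cells, 2 higher and 8 lower in macrophages, 4 and 3 in fibroblasts, 1 and 4 in myoepithelial, 1 and 2 in hormone-sensing and 0 and 3 in endothelial cells. The fibroblast counts lay near the background of 25.5% and 21.9%, and the lower counts in T/NK cells and macrophages above that of 27.9% and 29.1%. The background was 13.2% higher and 12.8% lower in myoepithelial, 8.84% and 10.4% in endothelial and 14.0% and 16.4% in hormone-sensing cells. The lower counts in myoepithelial and endothelial cells were above it as well, on few genes.

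The 2 title series did not separate the members in the tumor class. The libraries of the series also differed in form. Of the cell barcodes, 7.66 to 8.87% ended in N in the 4 CB libraries and 0% in the 3 WT libraries. The matrices with mitochondrial rows left in were those of replicates 7 and 8, both WT. The edgeR test of 3 WT against 4 CB mice over 9258 genes called 0 genes (0%) at an adjusted p under 0.05. The unadjusted p was under 0.05 for 446 genes, and 7 genes passed the adjustment in DESeq2. Bax had the lowest unadjusted p among the 8 members tested, with a log2 difference (WT minus CB) of -0.66 ± 0.29 (edgeR adjusted p = 0.97). Mcl1 differed by -0.39 ± 0.28 (edgeR adjusted p = 0.97). Within each series the direction of Mcl1 was the same as in the pooled data, with macrophages above tumor cells in 4 of 4 CB and 3 of 3 WT mice and hormone-sensing cells below in 4 of 4 and 3 of 3.

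Genes with profiles most like those of 3 survival members were ranked among 7037 genes by Pearson's r over 43 sums, after centring within each mouse (log2 of CPM + 10). The sums share mice and cells, so r is a description. For Mcl1 the closest were Grb2 (r = 0.691), Fam174a, Paf1, Blnk and Fes (0.655), each highest in macrophages. For Bcl2 they were Sept6 (0.852), Satb1, Nkg7, Il2rb and Gimap3 (0.832), each highest in T/NK cells. All of these but Sept6 were among the variable genes that formed the clusters, and Nkg7 and Il2rb are T/NK markers. Their T/NK peak is therefore no independent result. For Bcl2a1b they were its own copy Bcl2a1d (0.968), Plek, Gpr65, Snx20 and Slamf7 (0.958).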

How the data were processed

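Drop-seq libraries of 7 control tumors, 1 per mouse, were used. Per the labels and the study's methods, the authors aligned the reads, with the mouse genome mm10 and the PyMT sequence named in the methods, and deposited raw UMI counts, in whole numbers, for each barcode and gene. The submitters' processing notes list STAR and FastQC, and the builds GRCh37.p13 and hg19, which are human. The symbols in the files are those of mouse genes. Mitochondrial rows (26 and 27) were left in 2 matrices and dropped. Total UMIs in cells were 962677 to 4471473 per mouse. Intervals and floors (3 counts) cover counting error only.

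Barcodes with 200 to 6000 genes were clustered with Seurat 5.3.0 in R 4.3.3, on 585 variable genes, without Bcl2 and Bcl2a1b, with 20 principal components, 30 neighbors and a resolution of 0.6. The study used 9 components, with which the myoepithelial and endothelial lists named no cluster and the macrophage class was smaller, since a cluster of 1690 cells stayed unnamed. Each cluster was named after the marker list that scored highest, as the mean log2 fold against the median cluster (5 CPM added). The score had to reach 1 with at least 3 markers seen in 10% of the cells or more, and a cluster led by markers of another list stayed unnamed. The study's own names may differ. No doublet caller was run, and 6000 genes was the upper limit of a cell. UMIs of at least 10 cells were summed per mouse and class. Counts were tested with edgeR 4.0.16 (filterByExpr, TMM, quasi-likelihood, mouse as block, since sums with 1 replicate number come from 1 mouse) at a threshold of 0.05. The 43 sums of the 7 classes shared 1 fit. With the mouse as block, the p-values of the class fit measure how class differences spread over these mice. That spread was estimated over all classes together, so rare classes borrow it from the others. In the test of the title series p-values measure the spread between these mice. The labels do not say that the mice were separate litters. The script was tested on simulated data with changes in abundant genes of 1 class only. Such data cannot speak for members at low counts or for classes that differ in most genes. Alternatives were DESeq2 1.42.0, library sizes alone, no filter, no block, at least 20 cells, at least 500 genes, resolution 1.0, 9 components, classes set per cell, either title series by itself and 1 mouse left out at a time. Named genes were the 10 members, up to 3 called genes per list and comparison with the largest changes, and the 5 genes most like Mcl1, Bcl2 and Bcl2a1b. Not every gene within this rule is reported here. The members and lists were chosen with earlier results of these data known. Promoter windows are RefSeq's (GRCm38.p6) and gene positions those of the GENCODE annotation of GRCm38.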

Additional observations from a re-analysis of the deposited data

Results flagged for a closer look

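In 13 of 60 groups of 5 or 7 mice, 1 mouse stood far above the others, where chance gives about 1 in 20 groups. That rate does not hold for groups with most mice at 0, in which 1 or 2 UMIs are enough, so that 13 is no measure of an excess. Mcl1 stood out in the fibroblasts of replicate 1 (572.4 CPM) and in the T/NK cells of replicate 8 (606.5 CPM, 7 UMIs), where Bcl2a1b stood out with the same value (606.5 CPM, 7 UMIs). The macrophages of replicate 3 stood out for Bcl2 (59.64 CPM), those of replicate 8 for Bcl2l1 (78.93 CPM) and those of replicate 2 for Bbc3 (171.5 CPM). The remaining 7 were low levels in classes that mostly lacked the gene. These were Bcl2a1b in the hormone-sensing cells of replicate 3 (5.594 CPM) and in the myoepithelial cells (61.61 CPM) and fibroblasts (5.711 CPM) of replicate 8, Bbc3 in the fibroblasts of replicate 4 (16.08 CPM), Pmaip1 and Bid in the myoepithelial cells of replicate 5 (64.26 and 32.13 CPM), and Bid in the fibroblasts of replicate 2 (36.1 CPM).

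Cells outside the 7 classes were also above free RNA for some members. A cluster with markers of monocytes and dendritic cells (733 cells) had a mean of 626.5 CPM of Mcl1 and 229.5 CPM of Pmaip1, each above the free RNA of the same mouse in 7 of 7 mice. Macrophages held 516.6 and 131.9 CPM, so that the mean of both genes was higher in this cluster. A cluster with erythroid markers, led by hemoglobin genes and PYMT, had 30.55 CPM of Bbc3, above free RNA in 4 of 4 mice.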

How the results depend on the processing

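Of 914 alternative values of the tested results, 840 kept the direction and the side of the threshold or, for counts, came within 1.5 times, and of 21 alternative mean levels of Mcl1 1 moved by more than 1 SD, to 306.3 CPM in myoepithelial cells with classes set per cell. Set per cell, that class shared 141 of its 401 cells with the class by cluster, and 5346 cells had no class. The T/NK mean of Mcl1 fell from 259.0 to 134.4 CPM in the 5 mice left with at least 500 genes per cell. That move stayed within the SD of 163.9 CPM, taken with replicate 8 at 606.5 CPM. The cause of a change was not tested, and some of the settings use fewer mice, cells or genes. Members called against the tumor class changed to 0 (classes set per cell and CB mice alone) and 1 (WT mice alone) from 2 in myoepithelial cells, to 4 (no filter) and 1 (CB or WT mice alone) from 2 in fibroblasts, to 2 (no filter) and 0 (at least 500 genes per cell) from 1 in endothelial cells, and to 3 (CB mice alone) from 5 in macrophages, where no filter gave 3 higher and 1 lower in place of 5 and 0. Calls over all genes (higher and lower) changed in these settings too. In the same order, myoepithelial calls went from 816 and 795 of 6197 to 314 and 106 of 4354, 621 and 453 of 5718, and 370 and 193 of 5998. Fibroblast calls went from 1583 and 1357 to 2059 and 3087 of 31354, 1119 and 1045 of 5718, and 1062 and 695 of 5998. Endothelial calls went from 548 and 644 to 528 and 911 of 31354 and 367 and 564 of 4273. Macrophage calls went from 1409 and 1806 to 1092 and 1393 of 5718. The log2 difference of Mcl1 was no longer past the threshold in myoepithelial cells with classes set per cell (-0.25) and in CB mice (-0.77), nor in T/NK cells in WT mice (-0.79), and it passed in endothelial cells with no filter (-1.25). Without the mouse as replicate block Mcl1 in T/NK cells did not pass (-0.69, adjusted p = 0.055), and Bak1 in macrophages did not (0.79); the counts of calls over members stayed within 1.5 times. With single mice left out, the members called ranged from 1 (without replicate 7) to 3 in fibroblasts, and Mcl1 from 0.71 to 0.89 in macrophages, -1.23 to -1.02 in hormone-sensing, -1.71 to -1.04 in myoepithelial and -0.84 to -0.71 in T/NK cells.

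The sign turned in 34 values, of results that passed the threshold in neither setting. With classes set per cell, Bcl2l1 became 0.24 in hormone-sensing, 0.61 in myoepithelial, 0.25 in endothelial, 0.12 in macrophage and 0.04 in T/NK cells, Bcl2a1b 1.37 in endothelial cells, and Bax -0.26 in myoepithelial and -0.12 in T/NK cells. Bax in myoepithelial cells (0.03) became -0.42 with no filter, -0.14 without the replicate block, -0.06 in DESeq2, -0.03 at resolution 1.0 and -0.72 in WT mice, and Bax in T/NK cells (0.07) became -0.04 with library sizes only, -0.28 with no filter and with at least 500 genes, and -0.26 in CB mice. Bak1 became -0.03 in hormone-sensing cells with no filter and 0.06 in myoepithelial cells with library sizes only, Bcl2a1b -2.99 in myoepithelial cells in CB mice and 0.46 in endothelial cells in DESeq2, and Bax 0.25 in fibroblasts in WT mice. With single mice left out, myoepithelial cells gave -3.14 to 2.10 for Bcl2a1b, -0.32 to 0.09 for Bax, -0.23 to 0.10 for Bak1 and -0.19 to 1.12 for Pmaip1, fibroblasts -0.20 to 0.98 for Pmaip1, endothelial cells -6.07 to 0.19 for Bcl2 and -1.33 to 0.11 for Bcl2l11, and T/NK cells -0.49 to 0.20 for Bcl2l1 and -0.18 to 0.18 for Bax. The 9-component clustering gave no value for myoepithelial and endothelial cells, and the CB mice none for endothelial cells, of which 1 CB mouse had at least 10. Depth limits the rare classes most, with 24 UMIs of Mcl1 in endothelial and 50 in myoepithelial cells.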

Other observations

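The monocyte/dendritic cluster, led by Retnla, Alox5ap, Napsa and Ccr2, is set here beside macrophages. Bcl2a1b stood at 288 ± 236 CPM, Bax 116 ± 43.1 CPM and Bcl2l11 63.3 ± 26.5 CPM (SD, n = 7), against 656 ± 348, 132 ± 55.3 and 66.5 ± 25.7 CPM in macrophages. Of the UMIs of the A1 copies, Bcl2a1a took 21.5% ± 7.9 in that cluster and Bcl2a1d 40.8% ± 17.3, against 22.8% ± 7.0 and 21.1% ± 8.3 in macrophages. The 476 cells of the B cell cluster held 86.2 ± 62.1 CPM of Bcl2, 88.5 ± 72.3 CPM of Bcl2a1b and 252 ± 171 CPM of Mcl1 (n = 4), and Bbc3 had 0 UMIs among 210350. These values were not tested.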
